A study of Trachinotus blochii with 12 samples.

Results

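The comparison set liver mRNA of golden pompano (Trachinotus blochii), a farmed sea fish, that tolerated severe hypoxia against liver mRNA of fish that did not. It rests on 6 of the 12 RNA-seq libraries of the series, 3 from Tol livers and 3 from Intol livers, chosen by their labels. Tol fish were those still behaving normally after 24 h of hypoxia, and Intol fish those that floated head up, lost balance and were dying within 1 h. Fish of both groups were 2 months old, came from 3 tanks of 80, and were fasted in water whose dissolved oxygen was held at 0.9 ± 0.1 mg/L. The oxygen had been lowered within 2 h. Per the labels, 14 fish of each status were taken per tank, and whole livers were sampled after an overdose of the anaesthetic MS-222. Fish at normal oxygen were not part of these libraries. A difference between Tol and Intol livers therefore combines tolerance, the longer time in hypoxia without food and the dying state of the Intol fish, which cannot be told apart here. Whether 1 fish or several entered a library is not stated in the labels, and the p-values cover only the spread between these samples, which may be technical.

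The liver stores glycogen and lipid, releases glucose to the blood, and makes most plasma proteins. In hypoxia, vertebrate cells stabilise hypoxia-inducible transcription factors, which raise glycolytic enzymes and glucose transporters, while oxidation of fatty acids needs oxygen and is generally held back. Fish liver supplies glucose to brain and heart when aerobic metabolism is limited. The title of the study names glucose and lipid metabolism, but the files do not pair their 18490 gene models with gene names. Genes of these pathways were therefore not analysed here, and the tissue labels were not checked by marker genes. The gene models are described by level, direction and spread, and 4 of them by their identifiers.

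The values were read as FPKM, a level scaled to gene length and to the fragments of the library. Their sums were 601096 ± 10312 in Tol and 605587 ± 21188 in Intol livers (SD, n = 3 each). They do not give the number of reads, and the depth behind the values is unknown. Although the sums were alike, the typical gene model lay lower in Tol livers. The median-ratio size factor, which is the median over models of a library's value relative to the geometric mean of all 6, was 0.895, 0.955 and 0.874 in Tol livers. It was 1.16, 1.06 and 1.15 in Intol livers. The groups did not overlap (exact two-sided permutation p = 0.1, the smallest that 3 against 3 libraries allow). Dividing each library by its factor gives the scaled values used below beside the values as deposited. Neither scaling can say whether the RNA content of the liver differed, and in whole tissue fewer cells of a type and less RNA per cell cannot be told apart.

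Scaling changed how far the number of listed models differed between the groups. As deposited, 8306, 8616 and 8366 models reached a value of 1 in Tol livers, against 9319, 8996 and 9248 in Intol livers. The difference of the means was -758 models. After scaling the numbers were 8576, 8721 and 8702 in Tol livers and 8914, 8839 and 8859 in Intol livers, a difference of -204 models. The groups stayed apart under both scalings (exact two-sided permutation p = 0.1 each). At a higher limit, a scaled value of 5, Tol livers listed 3983 ± 58.0 models and Intol livers 3902 ± 64.4 (SD, n = 3 each; exact two-sided permutation p = 0.2), where the groups overlapped.

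**Figure D1:**
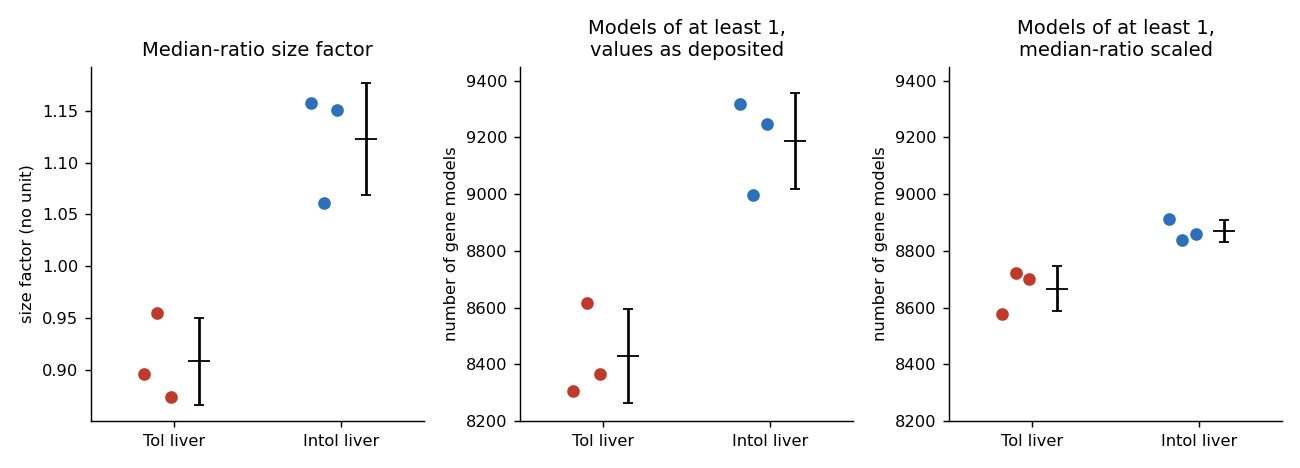
Median-ratio size factor (no unit) and number of gene models with a value of at least 1, as deposited and scaled, for 3 Tol and 3 Intol liver libraries. Points are libraries, the line and bars beside them are the mean and SD, and the axes do not start at 0. Tol minus Intol is -758 models as deposited and -204 after scaling.

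The most abundant gene models took a larger part of the summed value in Tol livers. The single most abundant model held 8.94% ± 0.80 in Tol and 7.75% ± 0.28 in Intol livers (SD, n = 3 each). The top 10 models of each library held 27.2% ± 2.6 in Tol and 22.4% ± 1.1 in Intol livers. Models ranked 11 to 100 held less in Tol, at 38.9% ± 0.47 against 40.7% ± 1.11 in Intol livers. Models outside the 1000 most abundant held 7.44% ± 0.52 in Tol and 9.04% ± 0.38 in Intol livers. For each of these 4 shares the Tol and Intol libraries did not overlap (exact two-sided permutation p = 0.1 each). As shares of 1 sum they are not independent of each other.

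Among the 10 models with the highest mean over the 6 libraries, individual models differed in direction. Those ranked 2, 3, 8 and 9 were higher in Tol livers at an adjusted p under 0.05 under both scalings (limma). At that threshold only the model ranked 10 was lower under both. Those ranked 4 and 7 were lower as deposited only, and those ranked 1 and 6 higher after scaling only. The model ranked 2 by its mean had values of 16915, 25026 and 36212 in Tol livers, against 9157, 8600 and 11978 in Intol livers. Every Tol value lay above every Intol value, and its share of the sum was 4.32% in Tol and 1.64% in Intol livers. Its change (difference of the Tol and Intol means of log2(value + 1)) was 1.34 as deposited and 1.65 scaled, with adjusted p of 0.0128 and 0.00475 (limma). The model ranked 8 had 13726, 9916 and 9750 in Tol and 5313, 6946 and 4202 in Intol livers, also without overlap. Its changes were 1.03 and 1.34, with adjusted p of 0.00711 and 0.00605 (limma). The model ranked 10 was lower in Tol livers, at 6078, 5269 and 5289 against 10165, 9540 and 9507 in Intol livers. Its changes were -0.81 and -0.51, with adjusted p of 0.000576 and 0.0125 (limma). The top model itself had 52110, 49286 and 59862 in Tol and 43610, 47993 and 49354 in Intol livers. Its groups overlapped as deposited, where its change of 0.19 had an adjusted p of 0.112 (limma), and after scaling its change of 0.50 had an adjusted p of 0.0206 (limma).

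Across the liver transcriptome both directions were common, and the balance between them followed the scaling and the filter. Of 9109 models tested, those that reached a value of 1 in no fewer than 3 of the 6 libraries, 37.1% passed a Benjamini-Hochberg adjusted p of 0.05 (limma) as deposited, 7.49% higher and 29.6% lower in Tol. After scaling 33.6% passed, 16.6% higher and 17% lower in Tol. These shares depended on the filter too. It let in 387 models with the 3 Intol livers alone at 1 or more, and 41 with the 3 Tol livers alone. Such models had to differ. Among the 7494 models at 1 or more in all 6 libraries, 595 were higher and 2013 lower as deposited. After scaling 1354 of them were higher and 1069 lower. The median change of all tested models was -0.20 as deposited and 0.03 scaled, so the scaling itself moved it by more than 0.1. Median-ratio scaling sets the typical change near 0, so a near-even split after it is not read as a result. In all, 682 models were higher and 1550 lower in Tol livers under both scalings. A further 1149 models were lower only in the values as deposited, 831 were higher only after scaling, 1 was lower only after scaling, and 0 were called in opposite directions. The 2232 common calls were defined by 1 direction under both of these scalings, so that agreement is not a result. The direction of the others is not settled.

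The numbers of calls also moved with single libraries. As deposited, the 682 higher calls fell to 372, 385 and 430 without Tol liver replicate 1, Tol liver replicate 2 or Intol liver replicate 3. Without Intol liver replicate 1 the 2699 lower calls became 1746, and without Intol liver replicate 3 they became 1784. After scaling, the 1513 higher calls fell to 822, 893 and 957 without Tol liver replicate 1, Tol liver replicate 2 or Intol liver replicate 3. The 1551 lower calls fell to 1012, 1020 and 1363 without Tol liver replicate 1, 2 or 3. They fell to 1028, 1035 and 906 without Intol liver replicate 1, 2 or 3. Leaving out any other single liver library also lowered the counts given above. Each such fit holds 5 libraries, and the cause of the lower numbers was not tested.

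**Figure D2:**
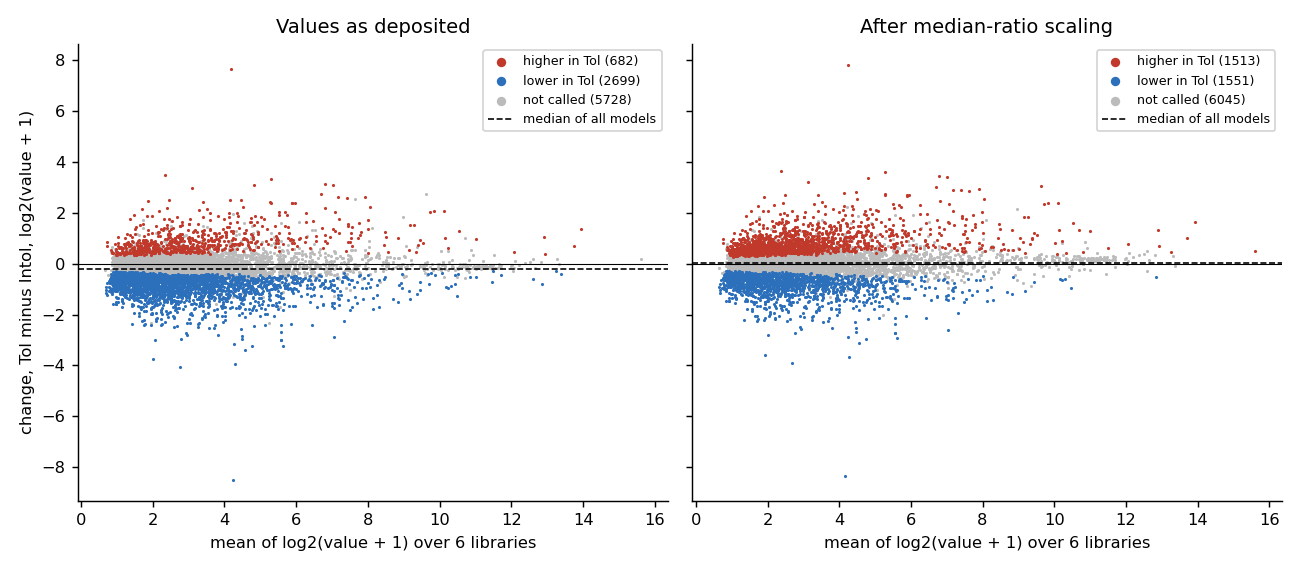
Change of each of 9109 gene models, as Tol minus Intol liver of log2(value + 1), against its mean level over the 6 libraries, as deposited and after median-ratio scaling. Red models were higher and blue ones lower in Tol at an adjusted p under 0.05; the dashed median of all models lies at -0.20 as deposited and at 0.03 after scaling.

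Among the calls common to both scalings falls were more numerous, and which direction had the larger changes turned with the scaling. The common set can hold no more than the 682 higher calls as deposited and the 1551 lower calls after scaling. Its excess of falls is therefore not read as a result, and after scaling alone 1513 models were higher and 1551 lower. On the scaled log2 scale the 682 higher models had a median change of 1.01, with a range of 0.49 to 7.81. The 1550 lower models had a median of -0.75, with a range of -8.33 to -0.28. A change of at least 1 in size was seen in 50.4% of the higher and 26.1% of the lower models, and in 9.02% of all tested models. As deposited, the same higher models had a median change of 0.75 and the same lower models one of -0.99. A change of at least 1 was then seen in 30.2% of the higher and 48.5% of the lower models, and in 11.3% of all tested models. A change of at least 2 was seen in 57 higher and 45 lower models after scaling, and in 37 and 70 as deposited. These values come from the contrast that made the calls and are a description only. Over the calls of each scaling by itself, 206 models had a rise of at least 1 and 770 a fall of at least 1 as deposited, and 376 and 406 after scaling.

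The groups did not overlap in nearly all called models, which follows in part from how models were called. All 682 higher models had 3 Tol values above the 3 Intol values after scaling, and for 429 of them the lowest Tol library exceeded the highest Intol library by 0.5 or more in log2 units. Of the 1550 lower models, 1546 did not overlap and 566 had such a gap. A gap of at least 1 was found for 86 higher and 120 lower models. No share over all tested models is given for these gaps, so they describe the called models only. Over all tested models 52.4% did not overlap as deposited and 51.2% after scaling, so separation of the groups without a call was also frequent, in 1615 models after scaling.

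The models called higher in Tol held more of the summed value in Tol than in Intol livers, and those called lower held less. The 682 higher models summed to 18.0%, 18.7% and 19.7% of the deposited values in Tol livers, against 9.04%, 9.40% and 9.25% in Intol livers. The 1550 lower models summed to 3.67%, 3.73% and 3.69% in Tol and to 8.73%, 7.76% and 9.18% in Intol livers. The models ranked 2, 3, 8 and 9 by mean level were among the 682. They held 4.32%, 2.88%, 1.86% and 1.48% in Tol, against 1.64%, 1.79%, 0.91% and 1.13% in Intol livers. The sum of the higher models thus rested in good part on a few of them. The model ranked 10 was among the 1550, at 0.92% in Tol and 1.61% in Intol livers. Models outside both sets held 77.3% ± 0.84 in Tol and 81.9% ± 0.69 in Intol livers (SD, n = 3 each). As the sets were chosen for this contrast, no test is given.

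The share of rises and falls among the levels varied with the scaling. The tested models were split by their mean over the 6 libraries into 4 classes of about equal size. In the lowest class, 90 of 2278 models were higher and 704 lower in Tol as deposited, and 235 were higher and 428 lower after scaling. In the highest class, with a mean value of at least 10.6 as deposited, 239 of 2277 were higher and 674 lower as deposited, and 428 were higher and 362 lower after scaling. The median changes of the 4 classes, from the lowest to the highest, were -0.21, -0.19, -0.18 and -0.20 as deposited, and -0.04, 0.04, 0.08 and 0.10 after scaling. The lowest class is shaped by the filter: 41 of its models as deposited passed with the 3 Tol livers alone at 1 or more, and 374 with the 3 Intol livers alone. Such models had to differ, so the excess of lower calls in this class is not read as a result. Under quantile normalization it held 319 higher and 329 lower calls. For the highest class, where 2275 of 2277 models reached 1 in all 6 libraries, the balance turned with the scaling, and quantile normalization gave 410 higher and 425 lower calls.

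**Figure D3:**
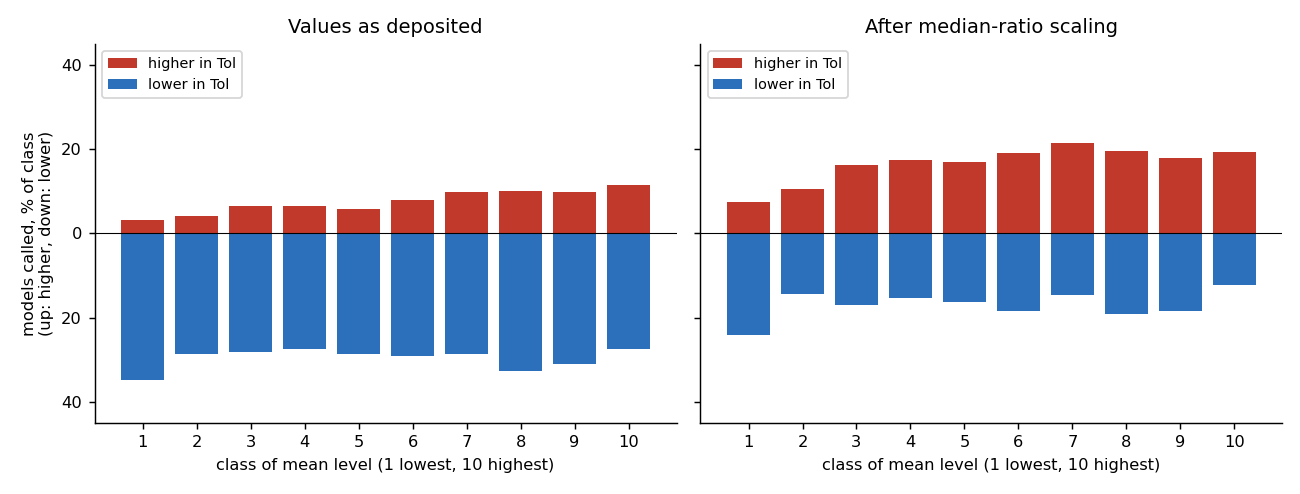
Share of models called higher (red, upward) and lower (blue, downward) in Tol liver, in % of each of 10 classes of mean level of about equal size, as deposited and after median-ratio scaling. Class 1, the lowest, has 3.18% higher and 34.8% lower calls as deposited and 7.57% and 24.3% scaled, but low models could pass the filter through 1 group alone, more often Intol, so that excess is not read as a result.

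The very abundant models showed the same dependence. Of 133 models with a mean of at least 1000, which held 72.2% ± 2.0 of the sum in Tol and 69.1% ± 0.5 in Intol livers (SD, n = 3 each), 12 were higher and 17 lower as deposited, and 21 were higher and 5 lower after scaling. Their median change was -0.14 as deposited and 0.17 scaled, against -0.20 and 0.03 for all tested models. Of the 330 models with a mean of 100 to 1000, 50 were higher and 95 lower as deposited, and 82 were higher and 41 lower after scaling. The 162 tested models with a mean below 1 passed the filter through 1 group for the most part, 95 through the 3 Intol and 12 through the 3 Tol livers alone, and no direction is read from them. These bands were set with the values known.

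Among the 463 abundant models, those with a mean of at least 100, 62 were higher and 46 lower in Tol livers under both scalings. This is 13.4% and 9.94% of them, against 7.49% and 17% of all tested models. Here too the common set was limited by the higher calls as deposited and the lower calls after scaling. The balance of rises and falls in it is therefore not read as a result. The 62 higher models had a median change of 1.20 as deposited and 1.505 scaled, with 41 and 52 of them at a change of at least 1, and the ratio of scaled Tol to Intol means had a median of 2.74. The 46 lower models had a median change of -1.37 as deposited and -1.06 scaled, with 34 and 26 of them at a fall of at least 1, and the ratio of scaled Intol to Tol means had a median of 2.12. In brain libraries, 18 of the higher and 19 of the lower models averaged below 1, as did 116 of the 463 abundant models. The called models therefore included both models below 1 in brain and models that brain also held.

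The largest changes of all were those of a pair of models with libraries at 0, which the rule for named models leaves out and which were picked after their values were seen. The model with the largest fall was listed at 0 in each of the 3 Tol livers, against 366.65, 296.41 and 433.15 in Intol livers. Its adjusted p was 4.2e-08 as deposited and 1.74e-07 scaled (limma), and no fold is given against a group at 0. In brain it stayed at or below 0.33 in Tol and at or below 0.08 in Intol fish. The model with the largest rise had 228.53, 716.75 and 102.57 in Tol livers, against 0, 1.08 and 0 in Intol livers, with adjusted p of 0.00115 as deposited and 0.000981 scaled (limma). Its Tol values spread widely, and in brain it was listed at 0 in every library but Tol brain replicate 2, at 0.06. An exact 0 can be a failed estimate where no counts are given, and this was not tested. In all, 2 of the 682 higher (0.29%) and 8 of the 1550 lower models (0.52%) had a liver library at 0. The same held for 22 of all 9109 tested models (0.24%).

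From the abundant models, 2 higher and 2 lower ones were named by a rule of size (called and without overlap under both scalings, no library at 0, largest scaled change), which 60 higher and 44 lower models could meet. Among models that could meet the rule, Trachinotus_GLEAN_10007135 had the largest rise, with values of 507.98, 316.44 and 222.59 in Tol livers, against 38.60, 73.06 and 17.29 in Intol livers. Its lowest Tol value lay well above its highest Intol value, although the Intol values themselves spread widely. The scaled means were 385 ± 163 in Tol and 39.1 ± 27.4 in Intol livers (SD, n = 3 each), a ratio of 9.84. Its change was 3.13 ± 0.54 as deposited and 3.43 ± 0.53 scaled (SE), with adjusted p of 0.006025 and 0.00444 (limma). By its scaled mean it ranked 228 of all models in Tol and 878 in Intol livers.

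Trachinotus_GLEAN_10008075 had 529.25, 378.08 and 273.67 in Tol livers, against 54.14, 94.94 and 16.17 in Intol livers. The libraries stood in the same order within each group as for the first model, with Tol replicate 1 and Intol replicate 2 the highest and Tol replicate 3 and Intol replicate 3 the lowest. Its change was 3.08 ± 0.64 as deposited and 3.38 ± 0.61 scaled (SE), with adjusted p of 0.0129 and 0.00711 (limma). Without Tol liver replicate 1 its change as deposited was 2.84 with an adjusted p of 0.0787, which misses the threshold (limma), and after scaling the adjusted p was 0.0322. Each of the 6 brain libraries listed it at 0. Trachinotus_GLEAN_10007135 was listed at 0 in every brain library but Tol brain replicate 1, at 0.20. Of liver and brain, the only tissues in the series, both models were thus listed almost only in liver.

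Among models that could meet the rule, Trachinotus_GLEAN_10008790 had the largest fall, with 38.13, 45.88 and 60.47 in Tol livers, against 320.55, 400.72 and 357.99 in Intol livers. The groups lay far apart. The scaled means were 53.3 ± 14.1 in Tol and 322 ± 51.3 in Intol livers (SD, n = 3 each), so that Intol was 6.04-fold above Tol. Its change was -2.89 ± 0.20 as deposited and -2.59 ± 0.22 scaled (SE), with adjusted p of 0.000179 and 0.000924 (limma). The model was also listed in brain, where it had 749.69, 744.69 and 745.08 in Tol fish, against 790.22, 728.46 and 799.77 in Intol fish. The brain groups overlapped, and the scaled change of -0.09 had an adjusted p of 0.407 (limma).

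Trachinotus_GLEAN_10000308 had 51.27, 32.72 and 28.79 in Tol livers, against 286.12, 197.69 and 143.34 in Intol livers, without overlap as the naming rule required. Its change was -2.43 ± 0.30 as deposited and -2.13 ± 0.30 scaled (SE), with adjusted p of 0.000906 and 0.00311 (limma). Intol was 4.48-fold above Tol by the scaled means. Its brain values were low, at 3.04, 2.48 and 2.89 in Tol brains, against 2.91, 3.35 and 2.49 in Intol brains. The brain groups overlapped, with a scaled change of -0.07 and an adjusted p of 0.810 (limma).

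**Figure D4:**
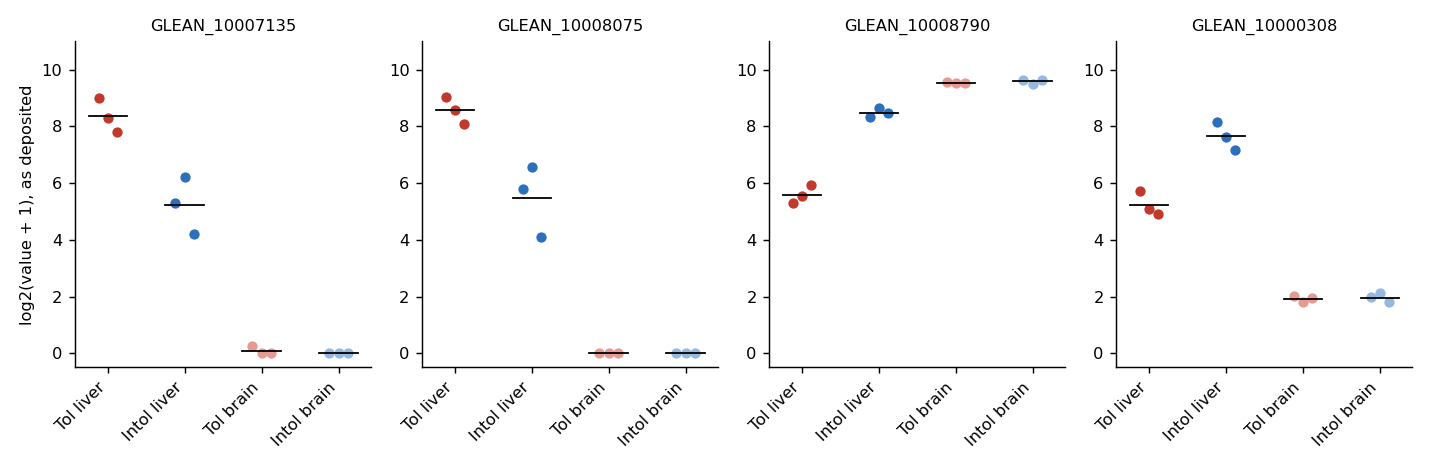
Levels of the 4 named gene models, as log2(value + 1) of the values as deposited, in the 3 libraries of each group, liver left of brain and Tol left of Intol. Points are libraries and lines are group means; liver values separate the groups in all 4 panels, as the naming rule required, while Trachinotus_GLEAN_10008790 lies between 744.69 and 749.69 in Tol brain and between 728.46 and 799.77 in Intol brain.

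Few gene models were listed in 1 group only. As deposited, 41 models reached 1 in all 3 Tol livers and stayed below 1 in all 3 Intol livers, and 387 did the reverse. After scaling the numbers were 113 and 232. They moved with the limit: at 0.5 they were 31 and 250 as deposited and 62 and 150 scaled, and at 2 they were 75 and 418 as deposited and 205 and 261 scaled. Most of these lay close to the limit. After scaling the models listed only in Tol had a median Tol mean of 1.39 and a highest of 4.96, and those listed only in Intol a median Intol mean of 1.59 and a highest of 324. None of the models below 1 in every Intol liver reached 5 in every Tol liver as deposited, and 4 models did so in the reverse direction. The liver difference was therefore mostly one of level among models that both groups expressed, with 7494 models at 1 or more in all 6 libraries as deposited.

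Over models the spread between replicates was somewhat wider in Intol than in Tol livers, as a description without a test, but single libraries did not all follow this. After scaling, the median SD of a model on the log2 scale was 0.157 in Tol livers, against 0.172 in Intol livers. Of all tested models, 54.6% had the wider spread in Intol. An SD of at least 1 was found for 54 models in Tol and 87 in Intol livers. Intol replicate 3 lay farthest from the mean of the other libraries of its group, at a median absolute deviation of 0.201. Intol replicates 1 and 2, at 0.158 and 0.156, lay below Tol replicates 1 and 3, both at 0.177, and above Tol replicate 2, at 0.121. The wider spread is therefore not read as a trait of the Intol group. Between a Tol and an Intol library the median absolute difference of a model was 0.290 to 0.498 after scaling. This is above the ranges within groups, which were 0.164 to 0.221 among Tol and 0.170 to 0.219 among Intol libraries. A difference of at least 1 was seen in 7.05% to 21.0% of models between the groups, in 1.20% to 2.43% within Tol and in 1.56% to 4.06% within Intol livers.

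The distance between the groups was graded. Tol replicate 1 and Intol replicate 3 were the pair farthest apart, at 0.498, and Tol replicate 3 and Intol replicate 2 the closest, at 0.290. Averaged over the 3 libraries of the other group, the difference was 0.420, 0.343 and 0.334 for Tol replicates 1 to 3, and 0.344, 0.314 and 0.439 for Intol replicates 1 to 3. Intol replicate 2 was thus the Intol library nearest to Tol, and Intol replicate 3 the farthest.

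Models higher in Tol mostly followed this order inside the groups as well, and models lower in Tol did so only in part. The distances were taken over all tested models, which include the called ones, so the order and these shares are not independent. Among the 682 models higher in Tol, Tol replicate 1 was the highest Tol library in 69.1%, Intol replicate 2 the highest Intol library in 71.6% and Intol replicate 3 the lowest in 76.4%. Among the 1550 models lower in Tol the order turned round only in part. Intol replicate 1 was the lowest Intol library in 48.1% of them, and Intol replicate 2, the nearest to Tol, in 38.6%. Tol replicate 1 was the lowest Tol library in 51.5% and Intol replicate 3 the highest Intol library in 66.8% of these lower models. Among the 6877 models not called under both scalings, Tol replicate 1 was the highest Tol library in 44.3%, Intol replicate 2 the highest Intol library in 36.7% and Intol replicate 3 the lowest in 40.4%. In the same 6877 models Tol replicate 1 was the lowest Tol library in 29.6% and Intol replicate 3 the highest Intol library in 33.4%. The 6877 include models called under a single scaling. The models share their libraries, so these shares describe 6 samples and are not tested.

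**Figure D5:**
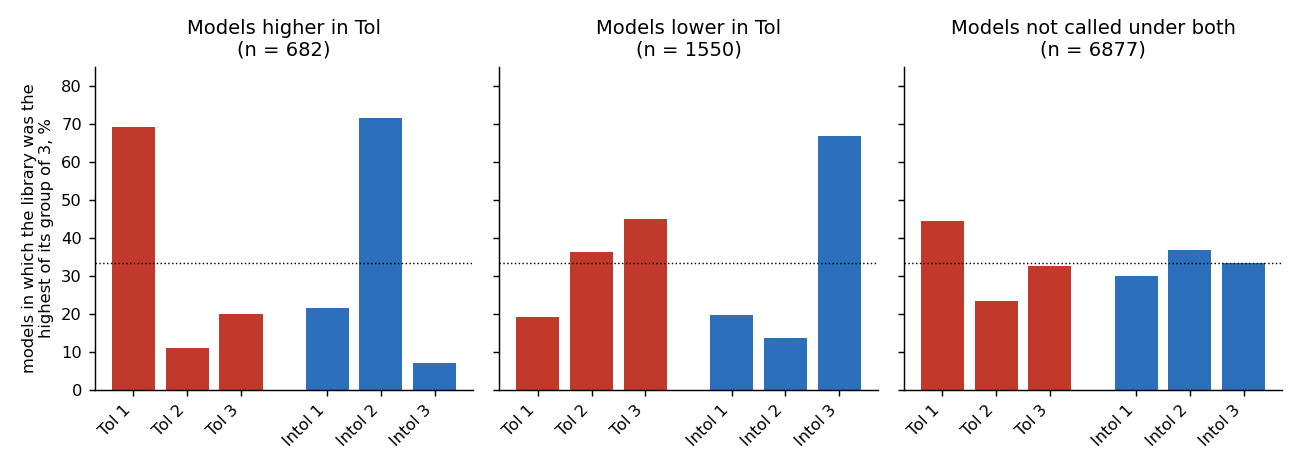
Share of gene models, in %, in which each library had the highest scaled value of its group of 3, for models higher in Tol, lower in Tol and not called under both scalings. The dotted line marks equal shares; Tol replicate 1 (69.1%) and Intol replicate 2 (71.6%) lead for models higher in Tol, and Intol replicate 3 (66.8%) for models lower in Tol.

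The change between Tol and Intol was wider in liver than in brain. The 2 tissues were compared over the 8464 models that passed the filter in both, after median-ratio scaling within each tissue. The liver change differed from the brain change for 28.4% of them (adjusted p under 0.05, limma interaction over 12 libraries), 14.6% above and 13.8% below it. Of these 2400 models, 2310 had the larger change in liver and 90 in brain, and 2057 were also scaled liver calls. No such share over all 8464 models is given, so these counts describe the called models only. The median size of the change was 0.316 in liver and 0.0973 in brain over the models tested. The median SE of a change was also larger in liver, at 0.149 over 9109 models, against 0.0984 over 14146 models in brain. A larger SE by itself raises the median size of a change, and its part in the difference was not tested. Within brain, 0.0566% of 14146 models were called after scaling, 8 in all (limma), with 2245 at an unadjusted p under 0.05. The split followed the scaling, with 469 models above and 2487 below as deposited. Without Tol brain replicates 1 or 3 the models above fell to 812 and 820. For Trachinotus_GLEAN_10008790 the difference, liver change less brain change, was -2.50 ± 0.22 (SE), with an adjusted p of 0.000139 (limma). For Trachinotus_GLEAN_10000308 it was -2.06 ± 0.35 (SE), with an adjusted p of 0.00204 (limma). Both models were picked by their falls in the same liver libraries, so these values largely restate those falls and are a description only.

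Models called in liver passed the filter in brain about as often as all tested models did. Of the 682 higher models 90.8% passed the filter in brain, as did 90.8% of the 1550 lower models and 92.9% of all tested models. Over all 6 brain libraries the median level of the higher models was 8.92, that of the lower models 8.23 and that of all tested models 10.4.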

How the data were processed

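Each deposited file lists 1 value for each of 18490 gene models. The deposited values carry 2 decimals and have unequal sums, and were read as FPKM, a unit that neither headers nor labels name. Per the labels' protocols, TruSeq libraries were built from RNA of integrity number over 8, read in pairs of 125 bp on an Illumina HiSeq, filtered and assembled with Trinity. The sources used here name no aligner, counting tool, genome build, annotation or normalization. A second block in the file of Intol brain replicate 2 equals the file of Intol brain replicate 1 in all 18490 values and was not used. No pair of liver libraries shared more than 2.79% identical values above 0. Whole-read steps were sought in the ratios of sparse models between liver libraries, but only 36 to 94 models served per pair and no bin of 0.05 held more than 21.7% of them, so depth was not recovered.

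Models that reached 1 in no fewer than 3 of the 6 liver libraries were tested on log2(value + 1) in limma 3.58.1 (R 4.3.3), using group means, a variance trend and robust moderation. Changes are Tol minus Intol, and this scale understates those of low models. Median-ratio factors were the median over models above 0 in all 6 libraries. Benjamini-Hochberg adjusted p under 0.05 is a call. The interaction used 4 group means over 12 libraries. Measures per library were compared by exact permutation, two-sided. Named models had a mean of at least 100, no library at 0, and a call and no overlap under both scalings. The 2 largest scaled changes each way were taken. Fits were also run on simulated data with known changes and independent noise for each model. That setting is simpler than these libraries, and no result here rests on it. The comparison, the rule and the lists were chosen with earlier results of these data known, and no gene list could be matched because 0 models carry a gene name. Python 3.11.15, NumPy 2.4.6, pandas 2.3.3, SciPy 1.17.1 and matplotlib 3.10.9 were used.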

Additional observations from a re-analysis of the deposited data

Results flagged for a closer look

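Tol and Intol differed otherwise in liver than in brain for 2400 of 8464 gene models, by the limma interaction. For Trachinotus_GLEAN_10008790 the difference, liver change less brain change, was -2.50, and it stayed between -2.85 and -2.35 under every alternative run. For Trachinotus_GLEAN_10000308 it was -2.06, with a range of -2.39 to -1.82. Both stayed past the threshold in all of these alternatives. As both were picked by their falls in the same liver libraries, these differences largely restate those falls and are a description only.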

How the results depend on the processing

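Quantile normalization of the deposited values gave 1544 higher and 1556 lower calls with a median change of 0.0174, close to the 1513, 1551 and 0.0307 of median-ratio scaling. Both methods bring the libraries to a common level, so this closeness is not read as a result. A mean of at least 5 as filter, which tests fewer models, left 1648 calls as deposited (413 higher, 1235 lower) and 1514 scaled (810 higher, 704 lower) with a scaled median of 0.0781. With all 12 libraries in 1 fit, 1042 models were higher as deposited and 2320 scaled. The median change was -0.0700 as deposited and -0.0045 scaled without a filter, and -0.26 and -0.10 as deposited with pseudocounts of 0.1 and 5. With each liver library left out, calls as deposited ranged from 2214 to 2918 (372 to 669 higher, 1746 to 2249 lower), and scaled calls from 1834 to 2703 (822 to 1422 higher, 906 to 1363 lower) with medians of 0.027 to 0.065. Interaction calls above the brain change ranged from 812 to 1512 and below from 784 to 1254 over the 12 left-out libraries. As deposited, 469 lay above and 2487 below, and with the spread of each tissue estimated apart, chosen after seeing the data, 2556 models were called. The cause of these moves was not tested, and some of these fits held fewer models or libraries. At a limit of 5 in place of 1, the difference in listed scaled models turned to 81 more in Tol.

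The labels share replicate numbers without saying what they mark. Deviations of same-numbered Tol and Intol livers correlated at 0.094, -0.142 and 0.076, and Tol replicate 1 correlated best with Intol replicate 2. Same-numbered liver and brain libraries correlated at 0.055, -0.003 and 0.076 in Tol and at 0.054, 0.106 and 0.152 in Intol fish. Deviations from a mean of 3 libraries cannot settle whether the numbers pair the samples. The replicate block gave 3513 calls as deposited, 3140 scaled and 2261 for the interaction. Unknown depth leaves models near a value of 1 without an interval.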

Other observations

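Gene models with consecutive identifier numbers tended to share their direction in liver. Of 4562 pairs of tested models with consecutive numbers, 345 had both members called under both scalings, and 270 of these moved the same way. After a higher model the next one was higher in 68 of 107 pairs (63.6%), and after a lower model in 36 of 238 (15.1%). Over all 2232 such calls 30.6% were higher. Genome positions and sequences of the models were not used here, so whether consecutive numbers mark neighbours, copies or parts of 1 gene that share reads was not tested.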
